A study of Mus musculus with 16 samples.

Results

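Macrophages of adipose tissue are recognised by a small set of surface receptors and secreted proteins. Adgre1 encodes the F4/80 antigen, Csf1r the receptor through which macrophages receive their survival signal, and Mertk a kinase receptor used to take up dying cells. C1qa, C1qb and C1qc encode the 3 chains of complement C1q, which assemble into a single secreted molecule. Mrc1 (the mannose receptor, CD206), Cd163 (the scavenger receptor for haemoglobin bound to haptoglobin), Folr2 (a folate receptor) and Lyve1 (a hyaluronan receptor) are used to mark resident macrophages, and Lyve1 with Folr2 and Cd163 marks those lying along blood vessels. These 10 genes were followed one by one.

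The tissue was gonadal white adipose tissue (WAT) of male C57BL/6J mice, collected after 20 weeks on a chow diet or a high-fat diet (HFD) following perfusion with saline. Control mice carried the floxed gene only (Mboat7 flox/flox), whereas the Mboat7 ASKO line was bred to lose Mboat7 in adipocytes through Cre driven by the adiponectin promoter. Cells without an active adiponectin promoter, macrophages among them, keep the gene. Each of the 4 groups held 4 mice, with 1 library per mouse. Mice are named here by the replicate numbers of their labels, 0 to 3.

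C1q made outside the liver comes largely from macrophages and dendritic cells, and its chains are usually expressed together. Tissue macrophages of many organs separate into a Lyve1-positive population near vessels and a population with higher antigen-presenting genes near nerves. Lyve1 is also expressed by lymphatic endothelium, Mrc1 by some endothelial cells, and Mertk by several phagocytic cell types, so none of these 3 genes reports macrophages alone in whole tissue.

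Values are in FPKM (fragments scaled to transcript length and to library size), from a table of 19373 genes. All 10 markers were among the 13148 genes that reached 1 FPKM in at least 4 mice and were tested.

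The 3 C1q genes lie side by side on the minus strand of chromosome 4 in the mm10 build, with C1qb at chr4:136880129-136886187, C1qc at chr4:136889804-136893065 and C1qa at chr4:136895917-136898803. Lyve1 and Folr2 are both on the minus strand of chromosome 7 and Mrc1 and Mertk both on the plus strand of chromosome 2, each pair far apart. Cd163 is on the plus strand of chromosome 6, Adgre1 on the plus strand of chromosome 17 and Csf1r on chromosome 18. The deposited locus of Csf1r was chr18:61105572-61177050, whereas GENCODE M21 places the gene at chr18:61100598-61132149. The deposited locus thus started later and ran past the annotated end. Whether this enters the Csf1r values was not tested. Exons of Csf1r share 873 of 5774 bases with Hmgxb3 on the opposite strand, and exons of Folr2 share 975 of 1546 bases (63.1%) with the antisense transcript Gm10602. The kit was directional, but whether strand was used in counting was not stated, so an antisense part in the Csf1r and Folr2 values is uncertain.

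Promoter sequence of up to 250 bases before the RefSeq start (GRCm38.p6) was available for 6 of the 10 genes, in 7 windows, 2 of them for Folr2. The windows of Adgre1, Csf1r, C1qa and Lyve1 were not available. PU.1, the product of Spi1, binds a purine-rich site with the core GAGGAA, which reads as TTCCTC on the other strand, and this core was found in the windows of C1qb, C1qc and Mrc1, 3 of the 7. It was 1 of 5 motifs counted, and was not the only one of the 5 found in 3 windows. Among 32851 promoters of the genome 23.3% held the same core on either strand. Sequences are given 5' to 3' on the strand of the gene, in lower case with each match in capitals, from RefSeq GRCm38.p6.

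For C1qb (minus strand, chr4:136886201-136886450, 250 bases) the match lay 30 bases before the start.

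C1qb: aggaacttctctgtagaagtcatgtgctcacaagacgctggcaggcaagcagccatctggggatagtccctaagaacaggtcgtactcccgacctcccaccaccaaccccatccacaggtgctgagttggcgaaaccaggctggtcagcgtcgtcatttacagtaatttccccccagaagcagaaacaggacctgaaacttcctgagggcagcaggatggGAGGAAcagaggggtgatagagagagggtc

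For C1qc (minus strand, chr4:136893066-136893164, 99 bases after 151 bases of its own annotated exons were left off) the match lay 193 bases before the RefSeq start.

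C1qc: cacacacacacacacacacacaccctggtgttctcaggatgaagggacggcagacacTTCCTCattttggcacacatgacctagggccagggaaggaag

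For Mrc1 (plus strand, chr2:14229164-14229391, 228 bases after 22 exon bases were left off) there were 3 matches, the farthest 180 and the nearest 35 bases before the start.

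Mrc1: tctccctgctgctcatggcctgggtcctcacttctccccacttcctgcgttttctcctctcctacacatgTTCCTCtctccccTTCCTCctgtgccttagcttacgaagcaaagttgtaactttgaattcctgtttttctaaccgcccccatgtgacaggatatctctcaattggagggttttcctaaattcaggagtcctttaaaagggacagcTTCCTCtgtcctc

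The AP-1 site TGACTCA, which reads as TGAGTCA on the other strand, was in 1 window, of Folr2, against 4.46% of promoters. The E-box CACGTG (the same on both strands, 6.02% of promoters) was found in 0 of the 7 windows.

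On chow, control mice showed a wide spread of abundance across the 10 markers. C1qa (41.6 ± 13 FPKM, mean ± SD) and Csf1r (41 ± 3.78) stood highest, C1qc followed at 37.8 ± 6.09, and Mrc1, Cd163, C1qb and Folr2 lay between 14.4 and 19.3 FPKM on average. Lyve1 read 5.87, 11.6, 1.09 and 1.95 FPKM in control chow mice 0 to 3, Mertk 2.97, 4.56, 5.05 and 4.44, and Adgre1 4.16, 3.06, 0 and 3.67. Adgre1, often the first marker chosen for a macrophage, was therefore the lowest of the 10 by mean in this group. In chow-fed Mboat7 ASKO mice Csf1r (51 ± 9.96) stood first and C1qa (35.4 ± 12.7) second, and the next 5 places were held by the same genes in the same order as in controls.

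**Figure D1:**
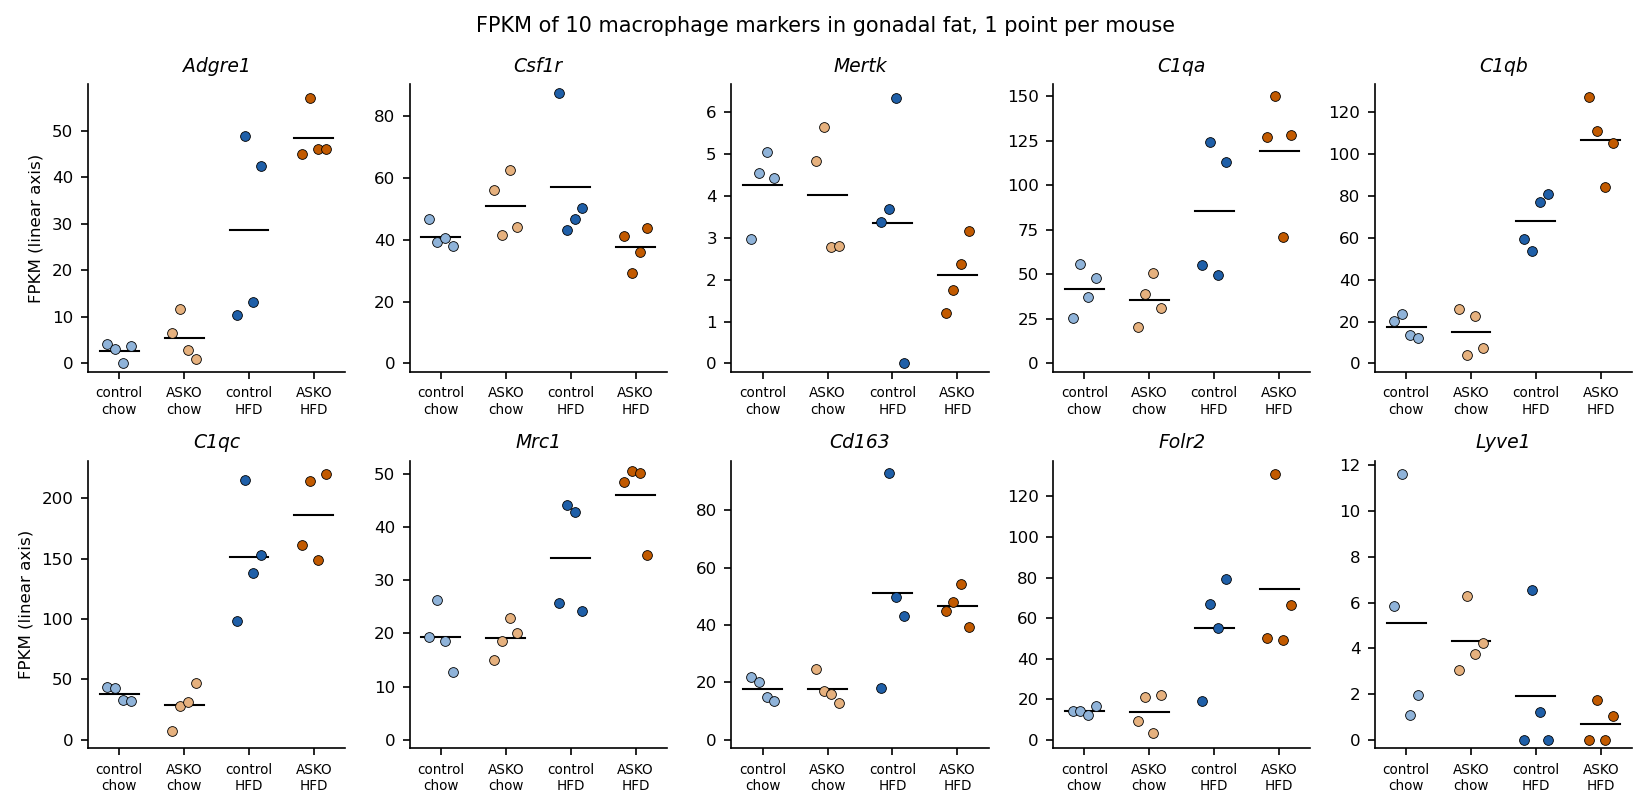
FPKM of each of the 10 markers in the 16 mice, 1 point per mouse, on a separate linear scale for each gene. The 4 groups are control and Mboat7 ASKO mice on chow and on HFD.

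Low values rested on few fragments. From the spacing of values in 1475 single-transcript coding genes, the libraries were estimated to hold between 253000 and 433000 fragments, with a median of 360000. The fragment length, 225 bases, was not measured but chosen in the same fit, as the length that gave the clearest spacing. By library, 54.3 to 81.4% of low values lay near a whole number of fragments. Evenly spread values would give 40% at a spacing fixed beforehand. The spacing was fitted to these same values, so an excess over 40% was in part built in and is no check of the estimate. Estimated fragments behind Csf1r ranged from 68.9 to 210 per mouse and behind Cd163 from 24.8 to 158, whereas Lyve1 had 10.4 at most and Mertk 8.67 at most. C1qb and C1qa, with short transcripts, had from 1.12 to 41.5 and from 4.26 to 52 fragments. A single fragment corresponded to 3.22 FPKM for C1qb and 1.03 FPKM for Lyve1 (medians over mice), so a Lyve1 value of 1.09 was about 1 fragment.

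**Figure D2:**
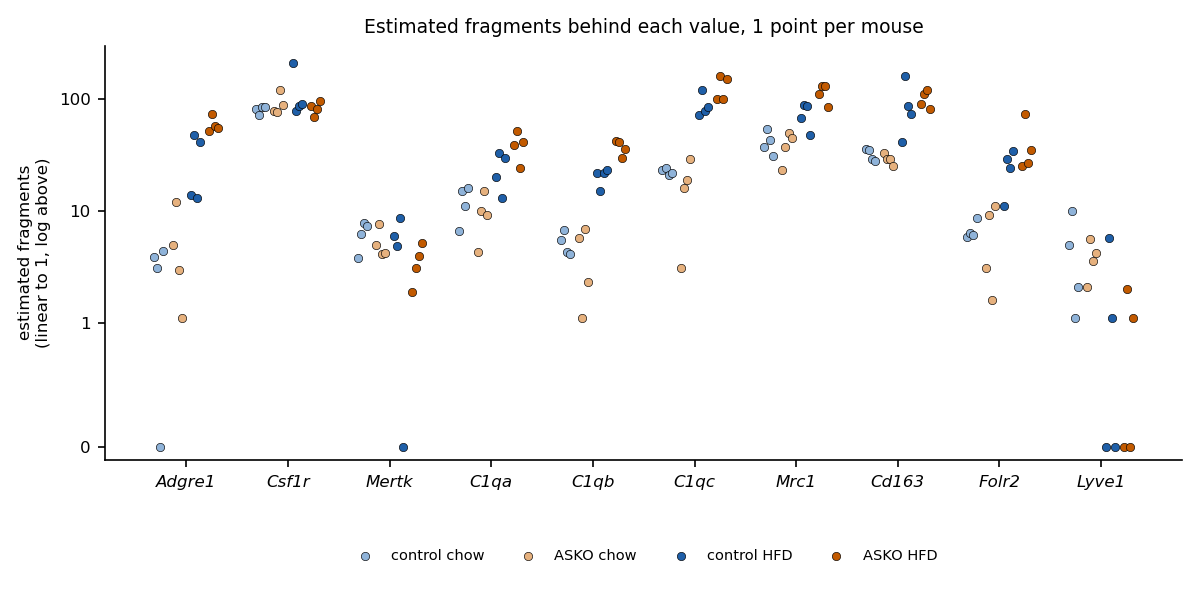
Estimated number of fragments behind each marker in each mouse, linear up to 1 and logarithmic above. On chow, Adgre1, Lyve1, C1qb and Mertk lie low and Csf1r lies highest.

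The deleted gene itself was too low to serve as a check of genotype in these libraries. Mboat7 read 2.42, 4.33, 0.902 and 4.99 FPKM in control chow mice and 0, 1.39, 0 and 2.89 in Mboat7 ASKO chow mice, and the groups overlapped (log2 difference -1.12, exact permutation p 0.143, 70 splits). On HFD the values were 0, 0, 2.15 and 1.61 against 1.14, 0, 2.6 and 0 (log2 difference -0.02, exact permutation p 1). No mouse had more than 16.2 estimated Mboat7 fragments.

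High-fat feeding enlarges gonadal fat, and macrophages gather around dying adipocytes in it. The first comparison asked which of the 10 markers differed between HFD and chow in control mice. Differences were tested with limma on log2(FPKM + 1), and a gene was called when its adjusted p was under 0.05 and its log2 difference past 0.5 in either direction. Of the 10 markers 3 were called higher (Adgre1, C1qb and C1qc) and 0 lower, where 238 of the 13148 tested genes (1.81%) were called higher and 145 (1.1%) lower. Every HFD mouse lay above every chow mouse for 4 markers (Adgre1, C1qb, C1qc and Folr2), which was true of 585 tested genes (4.45%). Because the libraries were made from whole tissue, a larger number of macrophages and more RNA per macrophage cannot be told apart.

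C1qb in control mice read 20.4, 23.5, 13.4 and 12 FPKM on chow and 59.6, 53.7, 77 and 81.1 on HFD. The lowest HFD mouse stood at more than 2 times the highest chow mouse. By limma C1qb rose with HFD by a log2 difference of 1.94 (95% CI 0.99 to 2.89, adjusted p 0.0241). C1qc read 43.5, 42.6, 33.4 and 31.8 FPKM on chow and 98, 215, 138 and 153 on HFD. The 2 diets again did not overlap, HFD mouse 0 being the lowest and mouse 1 the highest of its group, and the rise was 1.93 (1.03 to 2.82, adjusted p 0.017 by limma). C1qa, the third chain, read 25.7, 55.7, 37.2 and 47.7 on chow and 55.3, 124, 49.7 and 113 on HFD. HFD mice 0 and 2 lay inside the chow range while mice 1 and 3 lay at more than 2 times its top, and C1qa was not called (0.96, 0.16 to 1.77, adjusted p 0.232 by limma).

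Adgre1 showed the largest difference in control mice, with a wide spread. Values were 4.16, 3.06, 0 and 3.67 FPKM on chow and 10.5, 48.9, 13.1 and 42.5 on HFD. HFD mice 1 and 3 stood at more than 3 times mice 0 and 2, yet all 4 lay above all chow mice. The rise was 2.95 in log2 (1.59 to 4.31, adjusted p 0.0161 by limma). Csf1r, by contrast, read 46.5, 39.2, 40.4 and 37.9 on chow and 87.2, 43.2, 46.8 and 50.3 on HFD. Only HFD mouse 0 lay clearly above the chow mice, and Csf1r was not called (0.41, -0.17 to 0.99, adjusted p 0.56 by limma). Mertk read 3.38, 3.68, 6.35 and 0 FPKM on HFD, around its chow values (limma log2 difference -0.57, -1.71 to 0.58, adjusted p 0.733).

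Of the 4 receptors tied to resident and perivascular cells, none was called in control mice. Folr2 read 14.1, 14.5, 12.3 and 16.5 FPKM on chow and 19.4, 67.1, 54.9 and 79.3 on HFD. The groups did not overlap, but mouse 0 stood far below the other 3 HFD mice, and the limma test gave 1.71 (0.60 to 2.82) with adjusted p 0.103. Cd163 read 21.9, 20.2, 14.8 and 13.5 on chow and 18.2, 93.1, 49.9 and 43.3 on HFD. HFD mouse 0 lay inside the chow range and the other 3 above it (1.30, 0.47 to 2.13, adjusted p 0.0988 by limma). Mrc1 read 19.4, 26.2, 18.6 and 12.8 against 25.7, 44.1, 42.8 and 24.2, with HFD mice 0 and 3 just under the highest chow mouse (0.79, 0.14 to 1.44, adjusted p 0.227 by limma). Lyve1 was listed at 0 in HFD mice 0 and 3 and at 6.53 and 1.21 FPKM in mice 1 and 2, overlapping chow (-1.25, -2.71 to 0.20, adjusted p 0.446 by limma). The Lyve1 difference was -0.79 without control chow mouse 1 and -1.89 without control HFD mouse 1.

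Which markers were called in control mice depended on single libraries. Without control chow mouse 2, whose Adgre1 was listed at 0, the count went from 3 to 0. Leaving out control chow mouse 3 left 1 (C1qb and C1qc lost), as did leaving out control HFD mouse 1 (Adgre1 and C1qc lost) or mouse 3 (Adgre1 and C1qb lost), and without control HFD mouse 2 there were 2 (C1qb lost). Without control HFD mouse 0 the count was 5, with Cd163 and Folr2 added, and without Mboat7 ASKO chow mouse 2, which shares the fit, it was 4, with Folr2 added. The log2 differences themselves ranged over these fits from 2.40 to 3.32 for Adgre1, from 1.79 to 2.10 for C1qb and from 1.74 to 2.12 for C1qc. With other settings Adgre1 lost its call with a pseudocount of 0.1 or with only the control mice in the fit, C1qb lost it with adjustment over 5 contrasts together, and Cd163 gained it with array weights.

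The same question was put to Mboat7 ASKO mice, bred to lack Mboat7 in adipocytes. Their test shared its fit, but no mice, with the test in controls. Here 6 of the 10 markers were called higher (Adgre1, C1qa, C1qb, C1qc, Folr2 and Mrc1) and 0 lower, where 280 tested genes (2.13%) were called higher and 171 (1.3%) lower. Every HFD mouse lay above every chow mouse for 7 markers, the 6 called and Cd163, as for 681 tested genes (5.18%), and below every chow mouse for 1 marker, Lyve1, as for 581 tested genes (4.42%).

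C1qb in Mboat7 ASKO mice read 25.9, 3.93, 22.5 and 7.24 FPKM on chow and 127, 111, 84.2 and 105 on HFD. Chow mice 1 and 3 were low and HFD mouse 2 was the lowest of its group, still more than 3 times the highest chow mouse. C1qb rose by 3.07 in log2 (2.12 to 4.02, adjusted p 0.000708 by limma). C1qc read 7.15, 27.9, 31.7 and 47.3 on chow and 161, 214, 149 and 220 on HFD, with no overlap, and rose by 2.90 (2.01 to 3.80, adjusted p 0.000692 by limma). C1qa read 20.7, 38.8, 50.8 and 31.3 on chow and 127, 150, 70.9 and 128 on HFD. HFD mouse 2 was again lowest, above all chow mice, and C1qa rose by 1.74 (0.93 to 2.54, adjusted p 0.0161 by limma).

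Adgre1 in these mice read 6.55, 11.7, 2.83 and 0.981 FPKM on chow and 45, 57.1, 46 and 46.1 on HFD. The HFD mice were tight around 48.6 ± 5.75, without the 2 low mice seen among controls, and Adgre1 rose by 3.25 (1.89 to 4.61, adjusted p 0.0077 by limma). Csf1r read 55.9, 41.4, 62.6 and 44 on chow and 41.3, 29.2, 35.9 and 43.9 on HFD. The HFD mean of Csf1r (37.6 ± 6.51) was the lower one, the groups overlapped, and Csf1r was not called (-0.43, -1.01 to 0.15, adjusted p 0.511 by limma). Mertk read 4.85, 5.66, 2.79 and 2.81 against 1.2, 1.75, 2.38 and 3.17, overlapping through HFD mouse 3 (-0.68, -1.83 to 0.46, adjusted p 0.628 by limma).

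Folr2 read 9.16, 21.1, 3.42 and 21.9 FPKM on chow and 50.4, 131, 49.4 and 66.7 on HFD in Mboat7 ASKO mice. No HFD mouse came near the chow range, HFD mouse 1 stood alone at the top, and Folr2 rose by 2.5 (1.39 to 3.60, adjusted p 0.012 by limma). Mrc1 read 15, 18.5, 22.9 and 20.1 on chow and 48.5, 50.5, 50.2 and 34.8 on HFD. HFD mouse 3 was the low one of its group, and all 4 lay above the chow mice. Mrc1 rose by 1.22 (0.57 to 1.87, adjusted p 0.0353 by limma). Cd163 read 24.7, 16.9, 15.9 and 13 against 45, 48.1, 54.2 and 39.2 and did not overlap, but its adjusted p was 0.0667 by limma (1.38, 0.55 to 2.21). Lyve1 read 3.04, 6.29, 3.74 and 4.23 on chow and 0, 1.76, 0 and 1.03 on HFD, every HFD mouse below every chow mouse, and was not called (-1.76, -3.21 to -0.30, adjusted p 0.217 by limma).

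In Mboat7 ASKO mice the count of called markers moved less when a library was left out. It was 4 without HFD mouse 0 or HFD mouse 1 of that genotype (C1qa and Mrc1 lost), and 5 without Mboat7 ASKO chow mouse 0, 1 or 3 or HFD mouse 2 (Mrc1 lost). Without control HFD mouse 0 or 1 it was 7, with Cd163 added. With other settings Adgre1 lost its call with a pseudocount of 0.1, Folr2 when the control mice were left out of the fit, and Mrc1 likewise, without the intensity trend or with adjustment over 5 contrasts together. Cd163 gained it with array weights, when the control mice were left out, with scaling to the upper quartile or without the 10 most abundant genes, after quantile normalization and when 5 FPKM were required. The number of all genes called, 451, was 264 without Mboat7 ASKO HFD mouse 0. C1qa, Folr2 and Mrc1 were called in Mboat7 ASKO mice alone, and their genotype by diet values were 0.77 (limma adjusted p 0.857), 0.79 (0.896) and 0.44 (0.906). Without Mboat7 ASKO chow mouse 2 the Folr2 value was 0.30, and without control chow mouse 1 the Mrc1 value was 0.28. C1qb and C1qc, called in both genotypes, had genotype by diet values of 1.13 (adjusted p 0.804) and 0.97 (0.838) by limma. Without Mboat7 ASKO chow mouse 1 the C1qb value was 0.68, and without mouse 0 of that group the C1qc value was 0.44. Adgre1 had 0.29 (-1.63 to 2.21, adjusted p 0.976).

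**Figure D3:**
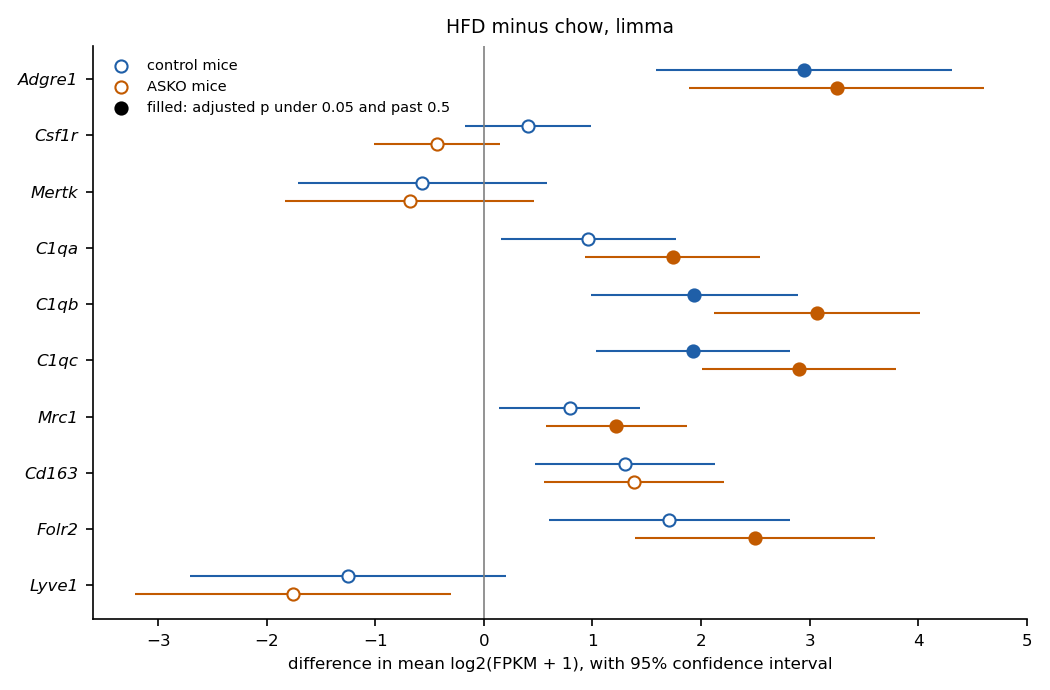
Difference in mean log2(FPKM + 1) between HFD and chow for each marker in control and in Mboat7 ASKO mice, with 95% confidence intervals from limma. Filled points had adjusted p under 0.05 and a difference past 0.5.

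A test of diet over both genotypes, which uses all 16 mice and was chosen after the data had been seen, shares its mice and fit with the 2 tests above. It called 7 of the 10 markers higher and 0 lower, where 590 tested genes (4.49%) were called higher and 400 (3.04%) lower. Adgre1 stood at 3.10 (limma adjusted p 0.000271), C1qb at 2.51 (7e-05), C1qc at 2.41 (5.74e-05) and Folr2 at 2.10 (0.00147). C1qa stood at 1.35 (0.00399), Cd163 at 1.34 (0.00548) and Mrc1 at 1.0 (0.00755), all by limma. Csf1r was at -0.01 (-0.42 to 0.40, adjusted p 0.992) and Mertk at -0.62 (-1.43 to 0.18, adjusted p 0.418) by limma. Without control HFD mouse 3 the Mertk value was -0.32. Lyve1 had -1.51 (-2.53 to -0.48) with p 0.00669 and limma adjusted p 0.0739, and passed without control chow mouse 2 or without control HFD mouse 1, which made the count 8.

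The order of abundance of the 10 markers differed between the diets. C1qc, C1qa and C1qb held the first 3 places on HFD in both genotypes, whereas C1qb had ranked 6 in both chow groups. Csf1r, at place 2 in control chow mice, was at place 4 in control HFD mice and 8 in Mboat7 ASKO HFD mice, and Adgre1 was at 8 and 5. Lyve1 was last in both HFD groups. The FPKM of the 10 markers added up to 201 ± 29.4 in control chow mice, 194 ± 18.9 in Mboat7 ASKO chow mice, 536 ± 139 in control HFD mice and 668 ± 104 in Mboat7 ASKO HFD mice. C1q chains made up 48 ± 3.1% and 40.1 ± 7.59% of that sum on chow and 56.7 ± 1.67% and 61.5 ± 4.42% on HFD.

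Ratios between markers within a mouse are free of the total number of macrophages when both genes come from the same cells. The log2 ratio of Adgre1 to Csf1r was -3.73 ± 1.10 in control chow mice and -3.30 ± 1.24 in Mboat7 ASKO chow mice, and -1.19 ± 1.43 and 0.37 ± 0.40 on HFD. C1qc to Csf1r was -0.12 ± 0.18 and -1.05 ± 1.24 on chow and 1.4 ± 0.89 and 2.27 ± 0.40 on HFD, and Folr2 to Csf1r -1.45 ± 0.24 and -2.06 ± 1.39 on chow and -0.15 ± 1.32 and 0.86 ± 0.85. These 3 ratios share Csf1r, and its own diet difference, 0.41 in control and -0.43 in Mboat7 ASKO mice, enters each of them. Cd163 to Mrc1 had means of -0.11 ± 0.27 and -0.13 ± 0.58 on chow and 0.40 ± 0.69 and 0.02 ± 0.13 on HFD. Ratios were taken on FPKM + 1. Lyve1 was listed at 0 in 4 of the 8 HFD mice, so its ratio on HFD is set in part by the added 1 and by Mrc1. Lyve1 to Mrc1 was -2.03 ± 0.92 and -1.94 ± 0.38 on chow and -4.07 ± 1.01 and -4.92 ± 0.85 on HFD, and single mice ran from -3.23 to -1.11 on chow and from -5.68 to -2.58 on HFD.

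Within C1q the ratios of the 3 chains were read in the same way. C1qa to C1qc was 0.09 ± 0.58 in control and 0.49 ± 0.82 in Mboat7 ASKO mice on chow, and -0.87 ± 0.43 and -0.67 ± 0.32 on HFD. C1qa to C1qb was 1.21 ± 0.66 and 1.45 ± 1.4 on chow and 0.24 ± 0.78 and 0.12 ± 0.30 on HFD. C1qb to C1qc lay at -1.12 ± 0.23, -0.96 ± 2.04, -1.11 ± 0.59 and -0.79 ± 0.31 in the same order of groups. No test was run on the ratios, and on chow C1qa and C1qb rested on few fragments.

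Loss of Mboat7 in adipocytes removes an enzyme that joins arachidonic acid to lysophosphatidylinositol, which gives phosphatidylinositol. The groups compared here are the same mice in the same fit as above. The question was whether the levels of the markers in whole fat differed between the genotypes. On HFD, 0 of the 10 markers were called by limma between Mboat7 ASKO and control mice, and 0 had an unadjusted p under 0.05. Of the 13148 tested genes 1 was called (0.00761%) and 677 (5.15%) had an unadjusted p under 0.05. C1qb was the 1 marker whose groups did not overlap, as for 445 tested genes (3.38%, either direction).

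C1qb on HFD read 59.6, 53.7, 77 and 81.1 FPKM in control and 127, 111, 84.2 and 105 in Mboat7 ASKO mice. Control mouse 3 and Mboat7 ASKO mouse 2 came within a few FPKM of each other, about the size of 1 fragment, and the limma difference was 0.65 (-0.30 to 1.60, p 0.167, adjusted p 0.985). Adgre1 was 10.5, 48.9, 13.1 and 42.5 against 45, 57.1, 46 and 46.1. Control mice 0 and 2 lay low while mouse 1 lay inside the Mboat7 ASKO range (1.02, -0.34 to 2.38, p 0.133, adjusted p 0.977 by limma). Without control mouse 0 the Adgre1 difference was 0.66. Csf1r was the member with the smallest p, with 87.2, 43.2, 46.8 and 50.3 FPKM against 41.3, 29.2, 35.9 and 43.9. The groups overlapped by control mouse 1 and Mboat7 ASKO mouse 3 (-0.54, -1.12 to 0.03, p 0.0636, adjusted p 0.973), and without control mouse 0 the difference was -0.32.

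The other 7 markers on HFD had intervals that spanned 0 in limma. C1qa differed by 0.53 (-0.27 to 1.34, adjusted p 0.985), C1qc by 0.33 (-0.56 to 1.23, adjusted p 0.993) and Mrc1 by 0.45 (-0.20 to 1.10, adjusted p 0.985). Folr2 differed by 0.47 (-0.63 to 1.58, adjusted p 0.993), Cd163 by 0.07 (-0.76 to 0.91, adjusted p 1), Mertk by -0.21 (-1.35 to 0.94, adjusted p 0.998) and Lyve1 by -0.39 (-1.85 to 1.06, adjusted p 0.993). Without control mouse 0 the Folr2 difference was 0.04 and that of C1qc 0.14, and without control mouse 2 that of C1qa was 0.31. With 4 mice in a group the intervals were wide, and differences inside them were not excluded.

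On chow the levels of the markers in whole fat were compared between genotypes. By limma 0 of the 10 markers were called and 0 had an unadjusted p under 0.05, against 1 (0.00761%) and 631 (4.8%) of the tested genes. The groups overlapped for each of the 10 markers, and did not for 288 tested genes (2.19%). C1qc was 43.5, 42.6, 33.4 and 31.8 FPKM in control and 7.15, 27.9, 31.7 and 47.3 in Mboat7 ASKO mice, with Mboat7 ASKO mouse 0 far below the rest (-0.64, -1.54 to 0.26, p 0.15, adjusted p 0.983). Without that mouse the C1qc difference was -0.11 and that of C1qa -0.01, without Mboat7 ASKO mouse 1 that of C1qb was -0.03, and without control mouse 2 that of Adgre1 was 0.17. Csf1r differed by 0.29 (-0.29 to 0.87, adjusted p 0.983), Adgre1 by 0.72 (adjusted p 0.983), C1qb by -0.48 (adjusted p 0.983), Folr2 by -0.32 (adjusted p 0.986) and C1qa by -0.24 (adjusted p 0.985). Mrc1 (0.02), Cd163 (-0.01), Lyve1 (0.11) and Mertk (-0.09) each had adjusted p 1 in limma.

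**Figure D4:**
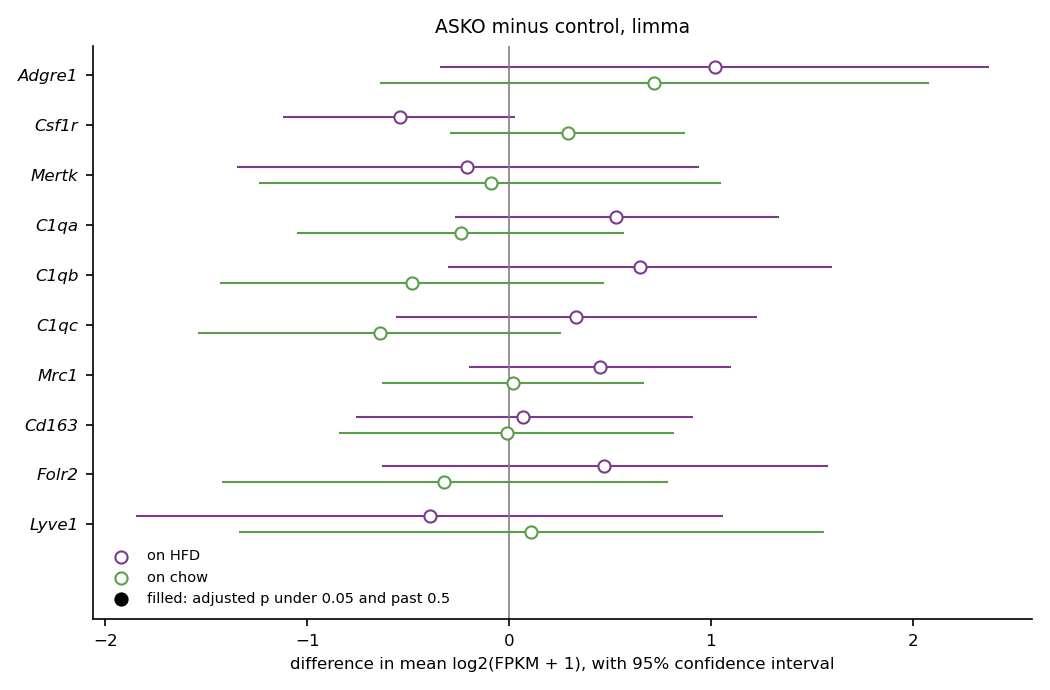
Difference in mean log2(FPKM + 1) between Mboat7 ASKO and control mice for each marker on HFD and on chow, with 95% confidence intervals from limma. No point is filled, because no marker had adjusted p under 0.05.

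The genotype by diet term asked whether the markers answered HFD to a different degree in the 2 genotypes. Of the 10 markers 0 were called by limma and 1 had an unadjusted p under 0.05, against 0 (0%) and 828 (6.3%) of the tested genes. That marker was Csf1r, whose diet difference was 0.41 in control and -0.43 in Mboat7 ASKO mice (interaction -0.84, -1.65 to -0.02, p 0.0455, adjusted p 0.785). Without control HFD mouse 0, the mouse with 87.2 FPKM, the Csf1r interaction was -0.61 and the diet difference in controls 0.19. Cd163 had an interaction of 0.09 (adjusted p 0.99), Lyve1 -0.50 (0.962) and Mertk -0.11 (0.99) by limma. Hmgxb3, which overlaps Csf1r on the opposite strand, averaged 6.05 ± 1.42 FPKM in control HFD mice and 2.78 ± 2.17 in Mboat7 ASKO HFD mice, against 2.67 ± 1.95 in control chow mice, and ranged from 0 to 2.31 in Mboat7 ASKO chow mice. Its diet difference was 1.08 in control and 0.60 in Mboat7 ASKO mice, its genotype difference -1.03 on HFD (p 0.0737) and -0.55 on chow, and its interaction -0.49, none of them called by limma. Of these 5 differences 3 had the sign of the Csf1r difference, and those for diet in Mboat7 ASKO mice and for genotype on chow had the opposite sign.

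CSF1R has 2 ligands, and a few transcription factors set macrophage identity. Where 2 values are given for chow or for HFD in what follows, the control mice come first and the Mboat7 ASKO mice second. Csf1 averaged 4.15 ± 2.95 FPKM in control chow mice and 3.55 ± 3.45 on HFD (limma -0.24, adjusted p 0.944), and in Mboat7 ASKO mice it ranged from 0 to 7 and from 0 to 5.31 (0.13, adjusted p 0.967). Il34 was listed at 0 in 2 mice of each of the first 3 groups and in 3 Mboat7 ASKO HFD mice, with 8.2 FPKM the highest value (-0.17, adjusted p 0.977 and -0.60, adjusted p 0.826 by limma). Like Csf1r, neither ligand was called. Spi1 was listed at 0 in all 4 control chow mice and in 3 Mboat7 ASKO chow mice, ranged from 0 to 6.03 in control HFD mice, and averaged 7.31 ± 1.84 in Mboat7 ASKO HFD mice. Spi1 was called in the latter genotype (2.63, adjusted p 0.0136), was not called in controls (1.61, 0.43 to 2.80, p 0.0107, adjusted p 0.164), and had an interaction of 1.01 (adjusted p 0.864). Of the 8 genes in this list control mice had 0 called and Mboat7 ASKO mice 1, and over both genotypes Spi1 was called at 2.12. Their summed level was 47.9 ± 11.6 and 40.9 ± 8.27 FPKM on chow and 60 ± 11.5 and 61.3 ± 8.91 on HFD.

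C1q works with the proteases C1r and C1s, which come from other cells. C1ra averaged 6.87 ± 4.31 and 5.47 ± 2.45 FPKM on chow and 7.32 ± 1.88 and 4.99 ± 2.56 on HFD (limma 0.22, adjusted p 0.906 and -0.10, adjusted p 0.96), and C1s1 50.2 ± 4.4 and 41.8 ± 11.3 on chow and 41.9 ± 2.12 and 56.4 ± 19.6 on HFD (-0.25, adjusted p 0.768 and 0.40, adjusted p 0.543). C1qb and C1qc rose in both genotypes, and neither protease was called in either. Among the 9 complement partners C3ar1, the C3a receptor, rose in control (2.36, adjusted p 0.00251) and Mboat7 ASKO mice (3.77, adjusted p 4.14e-05), and its means of 2.07 and 1.22 FPKM on chow compared with 13.8 and 28.7 on HFD. C5ar1 was called in Mboat7 ASKO mice (2.68, adjusted p 0.0139, interaction 1.08) and C2 was lower in control mice (-3.16, adjusted p 0.0185, interaction 0.57). Over both genotypes C3 (0.72), C3ar1 (3.06), C5ar1 (2.14) and C2 (-2.88) were called. The list summed to 186 ± 14.4 and 173 ± 13.4 FPKM on chow and 215 ± 16.9 and 251 ± 52.5 on HFD.

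Mertk binds dying cells through the bridging proteins GAS6 and protein S. Gas6 averaged 16.3 ± 5.59 and 10 ± 2.76 FPKM on chow and 5.23 ± 4.3 and 13.3 ± 5.39 on HFD, and was not called in control (-1.67, adjusted p 0.0733) or Mboat7 ASKO mice (0.34, adjusted p 0.808). The Gas6 interaction was 2.01 (p 0.00775, adjusted p 0.655) and its genotype difference on HFD 1.38 (p 0.00947, adjusted p 0.856) by limma. Pros1 averaged 12 ± 5.37 and 13.2 ± 4.43 on chow and 19.9 ± 2.62 and 23.5 ± 1.53 on HFD (0.78, adjusted p 0.307 and 0.83, adjusted p 0.252). Mertk was low in all groups, whereas Mfge8, the most abundant of the 9 genes of this list in the table, rose in both genotypes (2.27, adjusted p 0.00313 and 1.47, adjusted p 0.0498), and Axl, a kinase of the same family as Mertk, in control mice (1.55, adjusted p 0.0382, interaction -0.64). Over both genotypes Axl (1.23), Mfge8 (1.87) and Timd4 (-1.11) were called, Timd4 being listed at 0 in all 8 HFD mice. The list summed to 81.9 ± 10.6 and 89.4 ± 30.5 FPKM on chow and 226 ± 52.4 and 181 ± 30.7 on HFD. Tyro3 was not in the table and was not analysed here.

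Cd163 takes up haemoglobin bound to haptoglobin, and haem oxygenase breaks the haem down. Hp averaged 295 ± 88.8 and 373 ± 103 FPKM on chow and 474 ± 33.6 and 375 ± 157 on HFD (limma 0.73, adjusted p 0.221 and -0.03, adjusted p 0.983). Hmox1 ranged from 0 to 5.09 in control chow mice, was listed at 0 in all 4 Mboat7 ASKO chow mice, ranged from 2.32 to 18.7 in control HFD mice and averaged 12.6 ± 0.928 in Mboat7 ASKO HFD mice. It rose in Mboat7 ASKO mice (3.76, adjusted p 0.00113) and was not called in controls (1.34, adjusted p 0.297), with an interaction of 2.42 (p 0.00933, adjusted p 0.655). Cd163 had similar differences in both, 1.30 and 1.38. Of the 8 genes control mice had 0 called, and 1 (Hmox1) was called in Mboat7 ASKO mice and over both genotypes. The list, in which Fth1 and Hp were the most abundant, summed to 750 ± 138 and 901 ± 222 on chow and 1100 ± 160 and 931 ± 213 on HFD.

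Part of the general myeloid genes were called together with Adgre1 and C1q. Of 11 such genes 5 were called higher in control mice (Ptprc 1.59, Tyrobp 3.62, Cd68 2.71, Fcgr1 2.23 with interaction -0.74, and Lyz2 1.65), 7 in Mboat7 ASKO mice and 8 over both genotypes. The 4 with the largest differences in Mboat7 ASKO mice were Fcer1g (4.86, interaction 2.82), Cd68 (4.65), Tyrobp (4.0) and Fcgr3 (2.85, interaction 0.27). Lyz2, the most abundant, averaged 110 ± 16.2 and 96 ± 10.5 FPKM on chow and 357 ± 94.1 and 470 ± 121 on HFD, and Ptprc (CD45) 4.01 ± 1.21 and 2.81 ± 0.553 on chow and 14.1 ± 3.31 and 21.6 ± 3.74 on HFD. The list summed to 151 ± 21.7, 148 ± 41.7, 669 ± 162 and 855 ± 212 FPKM in the order control chow, Mboat7 ASKO chow, control HFD and Mboat7 ASKO HFD, with a median log2 difference of 2.04 in control and 2.24 in Mboat7 ASKO mice. The 10 macrophage markers had medians of 1.13 and 1.56. Laptm5, Cd14 and Aif1, named after their values had been seen, were called in 0 comparisons. For the 8 myeloid genes that were called with the markers, their part in the result was not tested.

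Other markers of resident macrophages gave a mixed picture. Of 11 genes, 10 of them tested, control mice had 0 called and Mboat7 ASKO mice 1, Selenop (1.07, adjusted p 0.0074, interaction 0.54). Over both genotypes Selenop was higher (0.80) and Cd209f lower (-2.04, adjusted p 0.0309 by limma). Cd209f, like Lyve1 a gene of perivascular cells, ranged from 6.46 to 25.5 and from 18.5 to 26.1 FPKM on chow and from 0 to 9.43 and from 0 to 17.5 on HFD. Folr2 (2.10) and Cd163 (1.34), which mark such cells together with Lyve1, went the other way over both genotypes. The median of the list over both genotypes was 0.34. The list summed to 287 ± 68.5 and 289 ± 41.1 on chow and 371 ± 33.2 and 454 ± 64.8 on HFD, most of it Selenop.

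Lymphatic endothelium also makes Lyve1, so its other markers were read beside it. Prox1 was listed at 0 in 13 of the 16 mice, with 1.09 FPKM the highest value. Pdpn, the most abundant of the 6, averaged 24.9 ± 19 and 17.3 ± 8.5 on chow and 9.07 ± 3.77 and 22.5 ± 13.2 on HFD. The sums were 25.3 ± 19.1, 28.6 ± 14.5, 18.7 ± 5.11 and 23.6 ± 12.9, and 0 of the 3 tested genes were called in any comparison. The other 2 tested genes, named after their values had been seen, were Ccl21a and Mmrn1. Ccl21a was listed at 0 in all 4 control chow mice and ranged from 0 to 10.9 in control HFD mice, from 0 to 16.3 in Mboat7 ASKO chow mice and from 0 to 3.3 in Mboat7 ASKO HFD mice (diet 2.57, adjusted p 0.155, and -2.06, adjusted p 0.271, interaction -4.63, p 0.00178, adjusted p 0.655 by limma). Mmrn1 ranged from 0 to 0.766, 0 to 3.44 and 0 to 5 in the same groups and was listed at 0 in all 4 Mboat7 ASKO HFD mice (1.14, adjusted p 0.36, and -1.64, adjusted p 0.129, interaction -2.78, p 0.0023, adjusted p 0.655). In Mboat7 ASKO mice both had a lower mean on HFD, as Lyve1 had, and in control mice a higher one. Blood endothelial genes, where Mrc1 may also be found, had 0 of 8 called, Pecam1 (most abundant) at 16.1 ± 7.37, 20.8 ± 8.08, 25.8 ± 12.7 and 20.7 ± 5.91, and sums of 44.5 ± 12.5, 41.2 ± 21, 56.3 ± 20 and 53.2 ± 15. Among 5 monocyte genes, 2 of them tested, 0 were called within a genotype and Plac8 (1.72, adjusted p 0.044 by limma) over both. Ccr2, the most abundant of them, averaged 4.71 ± 2.7 and 4.63 ± 1.85 FPKM in control mice on chow and HFD (limma 0.10, adjusted p 0.982), and ranged from 0 to 3.56 and from 2.35 to 9.76 in Mboat7 ASKO mice (2.11, p 0.00297, adjusted p 0.0703, interaction 2.01). Ly6c2 was listed at 0 in all but 1 mouse, and the monocyte sums were 4.71, 2.83, 8.4 and 12.9. The part of these cells in the Lyve1 and Mrc1 values was not tested.

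**Figure D5:**
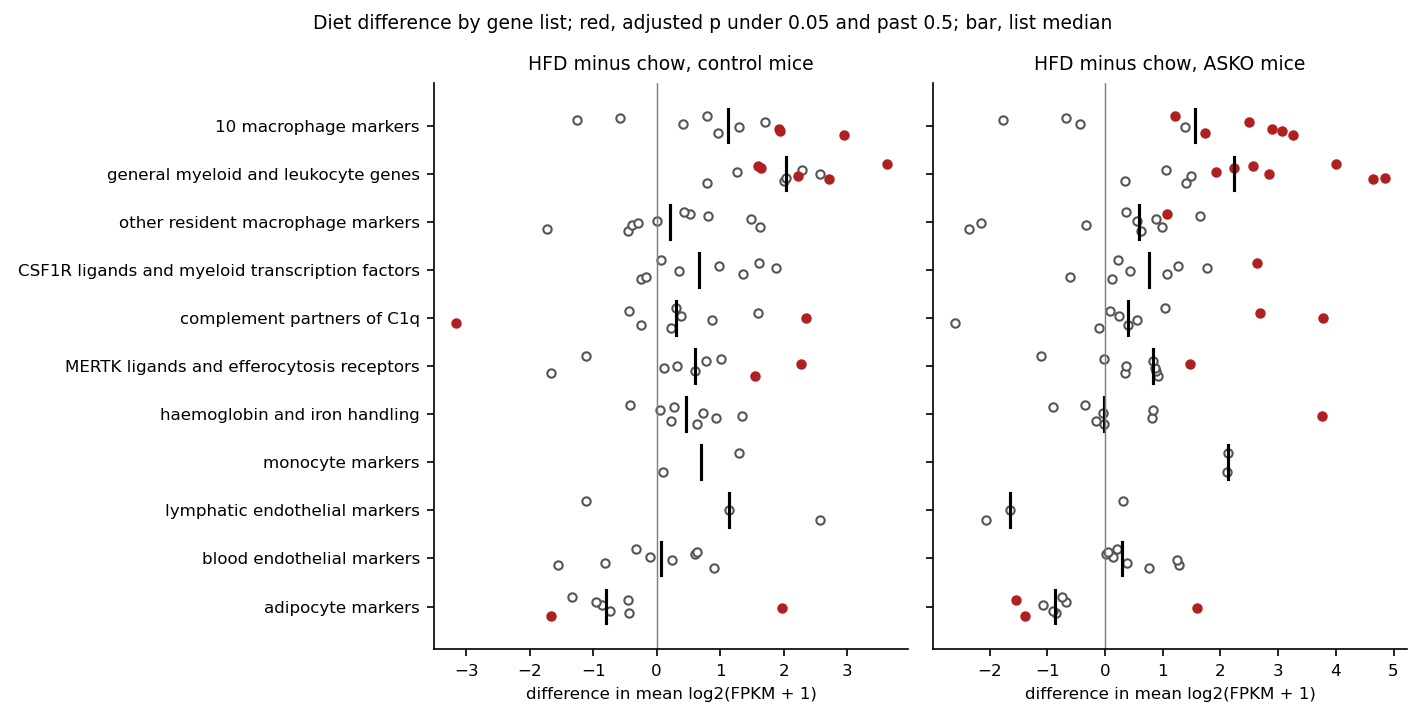
Diet difference of every tested gene in 11 gene lists, in control and in Mboat7 ASKO mice, with the list median as a bar. Red points are genes called by limma.

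The median diet difference of the adipocyte genes had the opposite sign to that of the 10 markers. Of 8 genes Lep was called higher in control (1.98) and Mboat7 ASKO mice (1.59), Adipoq lower in both (-1.67 and -1.38) and Pnpla2 lower in Mboat7 ASKO mice (-1.54, interaction -1.09), with 1 higher and 5 lower over both genotypes. Medians were -0.80 and -0.87, Fabp4 was most abundant, and Adipoq averaged 1410 ± 364 and 1060 ± 308 FPKM on chow and 438 ± 72.8 and 398 ± 59.8 on HFD. The sums were 11812 ± 2730, 13581 ± 7170, 7510 ± 2600 and 6770 ± 400. How much the share of adipocyte RNA enters the FPKM of the 10 markers was not tested.

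The remaining lists of other cells were read for the same reason, in the same order of groups. Progenitor genes (6, Dcn most abundant) had 0 called and sums of 166 ± 53.5, 154 ± 20.7, 174 ± 71.3 and 223 ± 30.2, with Pdgfra at 3.95 ± 1.98, 4.53 ± 2.7, 7.68 ± 4.39 and 8.24 ± 1.76. Mesothelial genes (6, Upk3b most abundant) summed to 31.6 ± 9.32, 19 ± 3.45, 5.17 ± 5.37 and 6.44 ± 3.36, with Msln listed at 0 in 5 of the 16 mice. Of these Lrrn4 was called lower in control mice (-1.48, adjusted p 0.0344, interaction 0.98) and over both genotypes (-0.99). Dendritic genes (5, Clec9a most abundant) had 0 called and sums of 21.7 ± 9.27, 33.3 ± 17.3, 51.9 ± 15.6 and 38.3 ± 12.4. Neutrophil and mast cell genes (6, 3 tested) summed to 5.27 ± 5.8, 8.35 ± 6.7, 27.1 ± 10.4 and 28.9 ± 6.46. Mcpt4 (2.95, interaction -1.16) and Tpsb2 (2.83, interaction -0.66) were called higher in control mice and over both genotypes (2.37 and 2.5), and S100a8 was listed at 0 in 15 of the 16 mice. T and B cell genes (6, 2 tested, Cd79b most abundant) had 0 called and sums of 0, 4.18, 4.91 and 3.7.

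RNA from blood and from the neighbouring epididymis was also read. Globin genes (4, 3 tested, Hbb-bs most abundant) had 0 called and sums of 20.1 ± 11.7, 84.3 ± 65.3, 26.9 ± 35.3 and 11.7 ± 11, with Hba-a1 listed at 0 in all 4 Mboat7 ASKO HFD mice. Of 4 epididymal genes only Adam7 was in the table, at 0.736 FPKM in control HFD mouse 3 and listed at 0 in the other 15. Cd3e, Flt3, Ly6g, Crisp1, Lcn5 and Lcn8 were not in the table and were not analysed here. In the 2 genotype comparisons and the interaction, 0 genes of any of these lists were called by limma.

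Which genes followed the 10 markers from mouse to mouse was read from Pearson correlations with the mean log2(FPKM + 1) of the markers, over 6032 tested genes with a mean of at least 5 FPKM. Across all 16 mice the 10 closest were Il1rn (r 0.952), Cd44 (0.949), Itgax (0.947), Rgs18 (0.941), Ctsb (0.936), Mpeg1 (0.933), Lum (0.930), Gm29439 (0.929), Prune2 (0.925) and Psap (0.924). All 10 were called higher with HFD in both genotypes by limma, so the shared diet difference enters these values. When each mouse was taken as its distance from its group mean, the 10 closest were Gm15542 (0.851), Ccdc174 (0.832), Tor1aip1 (0.828), Ifngr1 (0.824), Glyr1 (0.818), Gm17080 (0.812), Chrac1 (0.804), Psmc1 (0.787), Cbx1 (0.781) and Gm6419 (0.763). None of these was called in either genotype and the 2 sets had no gene in common. The correlations describe the 16 mice and carry no p.

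Adgre1, C1qb and C1qc were called higher on HFD in control mice, in Mboat7 ASKO mice and over both genotypes, and C1qa, Folr2 and Mrc1 in Mboat7 ASKO mice and over both. At the settings used throughout, Cd163 was called over both genotypes only. The calls of Adgre1, C1qb, Folr2, Mrc1 and Cd163 within a genotype depended on the settings as given above. Leaving out single libraries also ended the call of C1qc in control mice and that of C1qa in Mboat7 ASKO mice. Without control chow mouse 2, 0 markers were called for diet in control mice. Csf1r, Mertk and Lyve1 were called in none of the 6 comparisons at the settings used throughout. Csf1r had 29.2 FPKM or more in every mouse, though its deposited locus differed from the annotated gene, and Lyve1 and Mertk had few fragments. None of the 10 was called between genotypes on either diet.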

How the data were processed

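The authors deposited 1 table of FPKM for 16 libraries, made with TrimGalore, STAR on mm10 and Cufflinks; the GENCODE release and use of strand in counting were not stated. FPKM was used as deposited. Genes with at least 1 FPKM in 4 mice were tested with limma on log2(FPKM + 1), the 4 groups in 1 fit with an intensity trend and Benjamini-Hochberg adjustment within each comparison; calls needed adjusted p under 0.05 and a log2 difference past 0.5. Fragments were estimated from the spacing of values in single-transcript genes and, for each marker and Mboat7, from the exon bases of all its annotated transcripts together. Identifiers were matched to GENCODE M21 for 19289 genes (99.6%), 22 names turned into dates were repaired, and 20 symbols occurred more than once. Tools were R 4.3.3, limma 3.58.1, Python 3.11.15, pandas 2.3.3, numpy 2.4.6 and matplotlib 3.10.9. Labels and methods name different sequencers.

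Named genes were the 10 markers, Mboat7, up to 4 called genes per pathway list with the largest differences, fixed ligands and partners, the most abundant gene and first marker of cell lists, a few genes named after their values were seen, and the 10 closest genes by each correlation. Alternatives were pseudocounts of 0.1 and 5, quantile normalization, scaling to the upper quartile or without the 10 most abundant genes, a filter raised to 5 FPKM or dropped, only the groups compared, array weights, no trend, robust variances, no fold limit, adjustment over 5 contrasts, a replicate block, and leaving out each mouse. The test of diet over both genotypes was added after the data had been seen. Members and lists were chosen with earlier results of these data known. The code was tested on simulated data. 1 item of the gene lists is not reported here.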

Additional observations from a re-analysis of the deposited data

Results flagged for a closer look

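A mouse was marked when it stood far from the other 3 of its group by a fixed rule on the gap over the range, which chance flags about 1 in 20 groups. Of 92 groups 11 were marked, where chance would give 4.6. Adgre1 was 57.1 FPKM in Mboat7 ASKO HFD mouse 1 (45 to 46.1 in the others), Csf1r 87.2 in control HFD mouse 0 (43.2 to 50.3) and Mrc1 34.8 in Mboat7 ASKO HFD mouse 3 (48.5 to 50.5). The FPKM of all genes summed to 772406 in control chow mouse 1 (611890 to 636209), and its 10 most abundant genes took 41.9% (35.4 to 35.8). In Mboat7 ASKO HFD mouse 3 the 10 most abundant genes took 54.2% (38.7 to 39.2). Control HFD mouse 0 had 433000 estimated fragments (322000 to 332000). The log2 ratio of C1qb to C1qc was -1.99 in control HFD mouse 1 (-0.91 to -0.71), and that of Adgre1 to Csf1r -5.37 in control chow mouse 2 (-3.31 to -3.06). Folr2 to Csf1r was -2.11 in control HFD mouse 0 (0.23 to 0.65) and 2.13 in Mboat7 ASKO HFD mouse 1 (0.28 to 0.59). No explanation was tested.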

How the results depend on the processing

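With 4 mice per group, whole tissue and few fragments per gene, calls close to the limits moved with the settings, and the cause was not tested. Leaving out 1 library gave 0 to 5 called markers in control mice for diet and 264 to 492 genes in Mboat7 ASKO mice; genes called were 0 to 2 for genotype on HFD, 0 to 4 on chow and 0 to 1 for genotype by diet. Genes called for genotype on HFD (1) became 0 with a pseudocount of 5, a filter of 5 FPKM, quantile normalization, only the groups compared or a replicate block, 2 without a filter and 13 with adjustment over 5 contrasts. On chow (1) they became 0 with a pseudocount of 5, a filter of 5 FPKM, upper-quartile scaling, array weights, robust variances or the replicate block, 2 without a filter and 11 with adjustment over 5 contrasts, which gave 8 for genotype by diet. Diet genes went from 383 to 255 in control mice with only the groups compared, and in Mboat7 ASKO mice from 451 to 265 so and to 286 with adjustment over 5 contrasts. The replicate block gave 3, 6 and 8 markers for diet in control mice, Mboat7 ASKO mice and both, the last with Lyve1 added.

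Signs turned with a pseudocount of 0.1 for Mertk on HFD between genotypes (0.30) and for Adgre1 (-0.35) and Mertk (0.42) in the interaction, and with a pseudocount of 5 for Lyve1 on chow between genotypes (-0.02). Mrc1 on chow between genotypes was -0.03 with quantile normalization, -0.01 with upper-quartile scaling and -0.13 without the 10 most abundant genes, which also gave Mertk 0.10 in the interaction. Csf1r for diet over both genotypes was 0.05 with quantile normalization, 0.03 with upper-quartile scaling, 0.05 without the 10 most abundant genes and 0.01 with array weights, and Cd163 on HFD between genotypes -0.03 with array weights. Scaling without the 10 most abundant genes moved the median of all genes to 0.171 for diet in Mboat7 ASKO mice, 0.135 for genotype on HFD and 0.248 for the interaction, and the share of called genes that were higher in Mboat7 ASKO mice with HFD was 76% against 62.1%.

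Leaving out 1 mouse gave Mertk -0.92 to 0.03 for diet in control mice. Between genotypes on HFD it gave Cd163 -0.33 to 0.43, Mertk -0.81 to 0.15 and Lyve1 -0.73 to 0.24. On chow it gave Folr2 -0.61 to 0.18, Cd163 -0.18 to 0.11, Mrc1 -0.15 to 0.17, Mertk -0.24 to 0.03 and Lyve1 -0.29 to 0.57. In the interaction it gave Cd163 -0.32 to 0.44, Adgre1 -0.17 to 0.84, Mertk -0.72 to 0.24 and Lyve1 -0.97 to 0.13. Csf1r for diet over both genotypes ran from -0.12 to 0.05 and Mboat7 on HFD from -0.39 to 0.28. In the pairing check, mice with the same replicate number had a median correlation of 0.007 (-0.187 to 0.152) over 24 pairs of groups, and those with different numbers -0.004.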
